A study of Mus musculus with 30 samples.

Results

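Ighm, Fcrl1, Btk, Blnk, Pik3ap1 and Plcg2 are genes best known from B cells, and they are described here in macrophages of mice with a normal or a mutant thyroid hormone receptor α1. They are 6 of the 55414 genes counted, were found by symbol, and all 6 were among the 15686 genes with enough reads to be tested. They were chosen with their levels by genotype and state in view, so every comparison of them between genotypes or states is given as a description, with no test. Bulk polyA RNA was sequenced from cultures of bone marrow-derived macrophages, cells grown from marrow for 7 days in medium holding 15 or 20% L929-conditioned medium, which supplies macrophage growth factor. The donors were wild-type (WT) mice or mice with TRα1PV, a mutant of thyroid hormone receptor α1 known to bind no hormone and to act against the normal receptor. The mice are called transgenic, and no promoter or cell type that would limit the mutant is named. In each genotype, cells were left without stimulus (M0), received lipopolysaccharide and interferon-γ at 20 ng/mL each (M1), or received interleukin-4 (M2) at the same concentration. There were 6 groups with 5 biological replicates each. Age and sex of the mice, and whether a replicate is 1 animal, were not given in the sources used here, so the spread between libraries may in part be technical.

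In a B cell, membrane IgM, whose heavy chain constant region is encoded by Ighm, sits with the signalling chains Cd79a and Cd79b and forms the B-cell receptor. Ligation activates Src-family kinases and Syk, and the adaptor BLNK then brings together the kinase BTK and its substrate PLCγ2, which produces the second messengers for calcium and protein kinase C. PIK3AP1 (also called BCAP) links receptors to phosphoinositide 3-kinase, and FCRL1 is a receptor-like molecule of the Fc receptor family found on B cells. Macrophages use much of the same machinery behind Fc receptors and other receptors coupled to ITAM motifs, the tyrosine motifs that recruit SYK, while Ighm is not a typical macrophage gene.

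Depth was 23016000 to 59086000 reads in genes, kept to 5 digits. Levels are read counts per library scaled to the same total, in CPM, as mean ± SD over 5 libraries, and are not corrected for gene length, so they are compared between groups and not between genes. Differences are log2 fold changes ± standard error (SE), and a gene that is no member was called at an adjusted p under 0.05 in edgeR's quasi-likelihood test. The genotype labels were checked on Klf9, a thyroid hormone target, which was lower in TRα1PV by -3.81 ± 0.15 (log2, adjusted p = 1.09e-17) in M0 and was also lower in M1 (-5.19 ± 0.17) and M2 (-2.31 ± 0.12). The mutated gene itself, Thra, was higher in TRα1PV in each state, at 56.1 ± 4.03 against 24.5 ± 1.91 CPM in M0. All 11 macrophage markers on the list had reads in every group, and their summed level in M0 was 29591 to 34342 CPM in WT and 26883 to 31742 in TRα1PV. Reads in no gene made up 9.42 to 13.9% in WT M0, 11.7 to 14.4% in TRα1PV M0 and 8.66 to 11.5% in the other groups.

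Of the members, Ighm differed most between genotypes in M0 and M2. In WT M0, replicates 1 to 5 held 233, 243, 249.6, 233 and 192 CPM, a mean of 230.2 ± 22.3. In TRα1PV M0 they held 6.17, 9.83, 6.81, 6.36 and 7.26 CPM, a mean of 7.28 ± 1.48. The lowest WT library was far above the highest mutant one, and the mutant level was 31.8-fold lower (log2 -4.99 ± 0.16). After interleukin-4 the WT libraries held 70.2, 66.0, 74.8, 71.1 and 63.2 CPM, a mean of 69.1 ± 4.55. The TRα1PV M2 libraries held 2.10, 3.84, 2.81, 1.71 and 3.14 CPM, a mean of 2.72 ± 0.846, which was 25.7-fold lower (log2 -4.68 ± 0.17). The genotype groups were again fully apart. In these bulk samples, fewer cells with Ighm RNA and less of it per cell cannot be told apart.

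With lipopolysaccharide and interferon-γ, little Ighm RNA was left in either genotype. The WT M1 libraries held 1.30, 1.38, 1.30, 0.600 and 1.07 CPM and the TRα1PV M1 libraries 0.789, 0.943, 0.822, 0.340 and 1.14 CPM. These groups overlapped (log2 -0.47 ± 0.28), and they rest on 9 to 38 Ighm reads per library. The decrease from M0 to M1 was 203-fold in WT (log2 -7.67 ± 0.20) and 8.83-fold in TRα1PV (log2 -3.14 ± 0.21). The genotype effect in M1 therefore differed from that in M0 by 4.52 ± 0.35 on the log2 scale. From M0 to M2 the decreases were 3.33-fold in WT (log2 -1.74 ± 0.14) and 2.69-fold in TRα1PV (log2 -1.43 ± 0.17), and the genotype effect in M2 differed from that in M0 by 0.31 ± 0.22. From highest to lowest the groups ran WT M0, WT M2, TRα1PV M0, TRα1PV M2, WT M1 and TRα1PV M1, and only the last pair of neighbours overlapped.

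**Figure D1:**
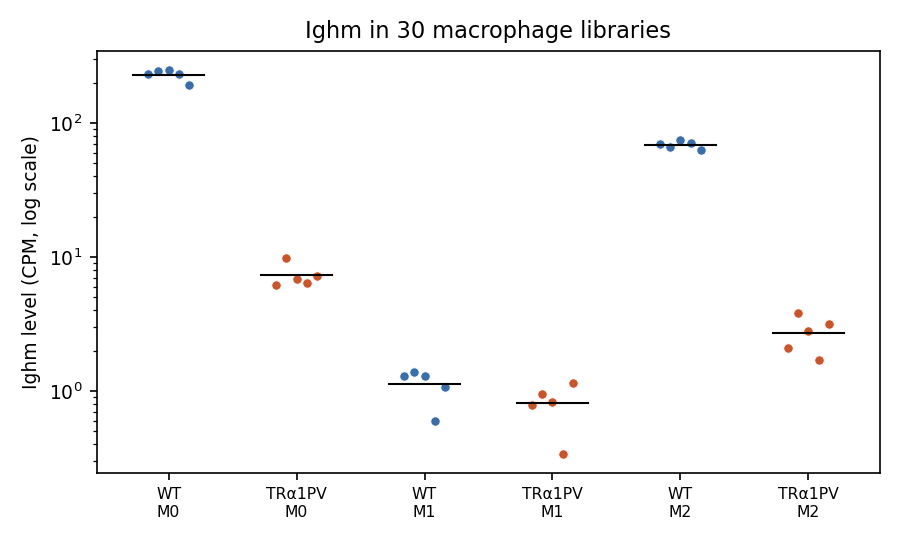
Ighm level in CPM (log axis) in each of 30 libraries, by genotype and state; points are libraries and the line is the mean of 5. WT M0 libraries lie between 192 and 249.6 CPM and TRα1PV M0 libraries between 6.17 and 9.83, whereas the M1 groups overlap near 1 CPM.

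The other immunoglobulin genes had few reads beside Ighm. The 5 WT M0 libraries held 44725 Ighm reads together, against 87 reads in the other 427 immunoglobulin gene entries, of which 412 had no read. The heavy chain V genes had 16 reads in 4 of 113 genes, the 17 D genes none, the 4 J genes 26 and the other heavy chain constant genes 22, 18 of them in Ighd, the gene next to Ighm. The κ light chain constant gene Igkc had 12 reads, and the 4 λ constant genes had none. HTSeq by default leaves out reads that align to several places, which can lower the counts of V genes that resemble each other. In TRα1PV M0 the other immunoglobulin genes had 139 reads beside 1771 of Ighm, with 35 in heavy chain V genes and 27 in Igkc. The genes nearest to Ighm had fewer reads than in WT M0, with 11 in the J genes (0.0494 against 0.136 CPM) and 1 in Ighd (0.00555 against 0.0935 CPM). No immunoglobulin gene other than Ighm had enough reads to be tested.

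Several defining genes of the B lineage were at or near 0 in WT M0, the group with the most Ighm, but not all listed genes were. Cd79a, a signalling chain of the B-cell receptor, had 3 reads over 5 libraries, Igll1 and Rag1 1 each, and Ms4a1 (CD20), Pax5, Rag2 and Blk none. A count of 0 over this group allows up to 3 reads, or 0.0178 CPM without TMM scaling, counting error only. Ebf1 had 15 reads and Vpreb1 25. Of the 28 B-lineage genes listed, 16 had a read in WT M0, with 3930 reads in all, and 14 had a read in TRα1PV M0. Cd79b, Cd22, Bank1, Fcrla, Spib and Cxcr5 were those with enough reads to be tested. The summed level of the list was 19.3 to 22.0 CPM in WT and 27.4 to 34.3 CPM in TRα1PV. This sum was also higher in TRα1PV in M1 (4.13 to 5.86 against 6.88 to 10.6 CPM) and M2 (10.8 to 12.3 against 13.7 to 16.2 CPM). It adds the tested genes to genes at or near 0, and how much of it came from B cells was not tested. Fcmr, a receptor for IgM, had no read in any library, and Fcamr and Pigr had at most 1 read in a group. Of 7 plasma-cell genes, 6 had reads in WT M0, and their sum was 87.0 to 93.2 CPM there and 72.3 to 81.4 in TRα1PV M0. Most of it came from Prdm1, Sdc1 and Irf4 (50.3 ± 4.41, 28.8 ± 6.13 and 10.4 ± 1.41 CPM in WT M0), which macrophages also express. Mzb1 had no read in WT M0, and Jchain, the joining chain of secreted IgM, had 35 reads there and 64 in TRα1PV M0.

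**Figure D2:**
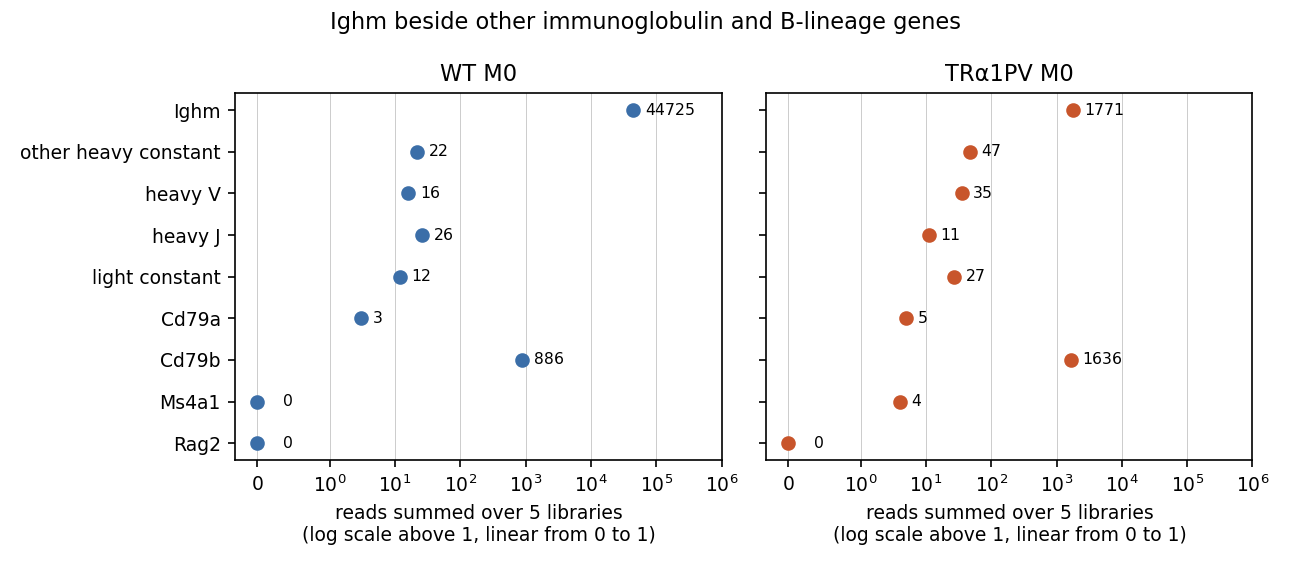
Reads summed over the 5 libraries of WT M0 (left) and TRα1PV M0 (right) for Ighm, other immunoglobulin gene classes and B-lineage genes; the axis is logarithmic above 1 and linear from 0 to 1. In WT M0, Ighm has 44725 reads and each other immunoglobulin class at most 26. Cd79b has 886 reads in WT M0 and 1636 in TRα1PV M0. The sums are not scaled for depth, which was 168661667 reads in genes in WT M0 and 215643965 in TRα1PV M0.

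Of the 6 B-lineage genes with enough reads, 3 were called higher in TRα1PV in M0, 3 in M1 and none in M2, and none lower, against 12.0%, 9.74% and 6.14% of all tested genes called higher. Cd79b, the signalling chain of the B-cell receptor, was at 6.55 ± 1.22 CPM in TRα1PV M0 and 4.61 ± 1.08 in WT M0 (log2 0.51 ± 0.16, adjusted p = 0.0172), and the 5 libraries of each group overlapped. The Cd79b call in M0 was lost without TRα1PV M0 replicate 1 (adjusted p = 0.0585; 0.00616 to 0.0585 over the libraries left out). Bank1, a scaffold protein of B cells, rose by 0.66 ± 0.16 in TRα1PV M0 (adjusted p = 0.0025), and Cd22, an inhibitory lectin, by 0.94 ± 0.18 in M1 (adjusted p = 0.000479). The third call in M0 and in M1 was Fcrla, an intracellular Fc receptor-like protein, named after its values were seen because it lay under the level set for named genes (1.02 ± 0.21 against 0.487 ± 0.15 CPM in M0, adjusted p = 0.00193). In M2, 1 of the 6 had an unadjusted p under 0.05, DESeq2 and limma-voom also called 0, and the replicate block and the fit of only the compared libraries each called 1.

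Markers of other cells also moved with genotype. Fibroblast and stromal markers summed to 7.46 to 25.1 CPM in WT M0 and 1.31 to 2.99 CPM in TRα1PV M0, and 8 of 8 tested fell in M0, 5 in M1 and 7 in M2, in the same direction as Ighm, where 14.0%, 10.2% and 6.96% of all tested genes were called lower. In M1, where Ighm overlapped, their sum was 8.06 to 9.77 CPM in WT and 5.06 to 7.70 in TRα1PV. Granulocyte-precursor markers had 9 of 11 tested higher and 2 lower in TRα1PV M0, 1 higher and 2 lower in M1, and 6 higher and 2 lower in M2. Of all tested genes, 12.0%, 9.74% and 6.14% were called higher. The 2 lower in each state were Mmp8 (log2 -4.48 ± 0.23 in M0) and Csf3r (log2 -1.04 ± 0.09 in M0). The summed level of the list, which mixes both directions, overlapped in M0 (357 to 497 against 283 to 479 CPM). Plasmacytoid dendritic-cell markers had 3 of 6 tested higher in M0 and 1 in each of M1 and M2, with M0 sums of 212 to 264 CPM in WT and 291 to 304 in TRα1PV. Of the plasma-cell list, the 1 gene of 5 called in M0 and in M2 was Sdc1, a proteoglycan, which fell in both (log2 -1.70 ± 0.19, adjusted p = 9.59e-08, and -1.68 ± 0.19, adjusted p = 1.88e-07). In M1 edgeR called 0 of the 5, with 0 at an unadjusted p under 0.05. T- and NK-cell markers summed to at most 0.689 CPM in any M0 library, and none of their 2 tested members was called between genotypes. The part of these markers in the levels of Ighm and the other members was not tested.

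Blnk, the adaptor, was the only member whose genotype groups were apart in every state. WT M0 libraries held 103, 129, 121, 114 and 115 CPM and TRα1PV M0 libraries 52.4, 54.1, 51.6, 50.9 and 61.9 CPM. In M1 the values were 79.0, 101, 91.1, 78.7 and 98.0 CPM in WT and 45.8, 36.7, 35.8, 40.2 and 47.8 CPM in TRα1PV. In M2 they were 65.9, 69.3, 64.9, 67.2 and 62.5 CPM in WT and 34.3, 29.0, 30.6, 26.8 and 30.8 CPM in TRα1PV. The highest mutant library lay below the lowest WT library each time. The size of the difference was alike in the 3 states, at 2.15-fold in M0 (log2 -1.10 ± 0.08), 2.17-fold in M1 (log2 -1.12 ± 0.08) and 2.18-fold in M2 (log2 -1.12 ± 0.08), and the M1 and M2 effects differed from that in M0 by -0.01 ± 0.12 and -0.02 ± 0.12. Between states Blnk differed less, and by near-equal amounts in both genotypes: -0.38 ± 0.08 (WT) and -0.39 ± 0.08 (TRα1PV) from M0 to M1, and -0.82 ± 0.08 and -0.84 ± 0.08 from M0 to M2. The order from WT M0 through WT M1, WT M2, TRα1PV M0 and TRα1PV M1 to TRα1PV M2 had no overlap between neighbours, though WT M2 and TRα1PV M0 were only 62.5 against 61.9 CPM apart at their nearest libraries.

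The region before the Blnk start site is shown because Blnk differed by genotype in each state. It is the RefSeq window of build GRCm38.p6, 250 bases before to 50 after the start, at chr19:40994172-40994471 on the minus strand, written 5′ to 3′ along the gene.
Blnk: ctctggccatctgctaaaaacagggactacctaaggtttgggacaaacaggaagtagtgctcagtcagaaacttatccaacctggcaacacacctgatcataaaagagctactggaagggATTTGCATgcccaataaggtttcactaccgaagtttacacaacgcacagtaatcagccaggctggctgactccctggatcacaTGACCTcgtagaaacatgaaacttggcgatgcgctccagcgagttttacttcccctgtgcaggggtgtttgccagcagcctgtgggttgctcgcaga
The first run of capitals is the octamer ATTTGCAT, the site of POU factors such as Oct-2, 130 bases before the start, and the second is TGACCT, which is the thyroid hormone receptor half-site AGGTCA on the other strand, 47 bases before it. On both strands, 1.74% of 32851 such windows in the table hold the octamer and 16.3% the half-site, so the latter is common. A direct pair of AGGTCA half-sites 4 bases apart is in 0.0152% of windows and in none of the 5 members with a window. These are matches of letters in another build than the one the reads were aligned to, and binding was not measured.

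Pik3ap1, the adaptor to phosphoinositide 3-kinase, varied mostly with state. M0 libraries held 422 to 552 CPM in WT and 504 to 566 in TRα1PV. M1 libraries held 1847 to 2055 and 2149 to 2379 CPM, and M2 libraries 208 to 243 and 213 to 259 CPM. From M0 to M1 the level was 4.25-fold higher in WT (log2 2.09 ± 0.07) and 4.19-fold higher in TRα1PV (log2 2.07 ± 0.07), and from M0 to M2 it was 2.08-fold lower (log2 -1.06 ± 0.07) and 2.33-fold lower (log2 -1.22 ± 0.07). It was the only member higher in M1 than in M0. Between genotypes it was a little higher in TRα1PV in M1, where the 5 mutant libraries all lay above the WT ones (log2 0.21 ± 0.07). In M0 (log2 0.23 ± 0.07) and M2 (log2 0.07 ± 0.07) the genotypes overlapped.

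Fcrl1, the receptor-like member, was low and fell off with both stimuli. WT M0 libraries held 6.68, 10.1, 9.70, 8.23 and 9.30 CPM and TRα1PV M0 libraries 6.93, 7.52, 6.87, 8.79 and 7.43 CPM, so the genotypes overlapped. In M1 the ranges were 1.31 to 1.58 CPM in WT and 0.608 to 1.72 in TRα1PV, and in M2 they were 0.29 to 0.75 and 0.164 to 0.562 CPM, on 6 to 25 reads per library. The decreases from M0 were 6.18-fold (WT) and 7.18-fold (TRα1PV) in M1 and 16.5-fold and 19.5-fold in M2, so interleukin-4 was followed by the lower level, the reverse of the order for Ighm. Genotype differences were -0.23 ± 0.17, -0.44 ± 0.23 and -0.47 ± 0.29 (log2) in M0, M1 and M2, with overlap in each state.

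The Fcrl1 and Pik3ap1 windows are printed beside each other because these members had the largest differences between states apart from Ighm; both are RefSeq windows of GRCm38.p6 of the same extent as for Blnk, at chr3:87376137-87376436 on the plus strand and chr19:41385053-41385352 on the minus strand.
Fcrl1: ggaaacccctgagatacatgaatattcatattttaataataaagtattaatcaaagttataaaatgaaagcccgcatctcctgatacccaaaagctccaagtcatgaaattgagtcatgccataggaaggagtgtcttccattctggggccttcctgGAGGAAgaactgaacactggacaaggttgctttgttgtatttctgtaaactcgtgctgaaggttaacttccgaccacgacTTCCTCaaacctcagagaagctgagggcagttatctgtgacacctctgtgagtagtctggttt
Pik3ap1: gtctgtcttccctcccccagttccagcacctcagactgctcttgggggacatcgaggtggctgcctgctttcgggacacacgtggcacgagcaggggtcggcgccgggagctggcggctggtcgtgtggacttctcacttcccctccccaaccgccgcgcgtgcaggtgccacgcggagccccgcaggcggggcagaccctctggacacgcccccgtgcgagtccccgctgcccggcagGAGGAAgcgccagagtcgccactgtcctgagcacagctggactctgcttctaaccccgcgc
Capitals mark GAGGAA or its complement TTCCTC, a core of sites for the macrophage and B-cell factor PU.1, which is in 28.3% of all windows. Fcrl1 holds it 93 and 13 bases before the start and Pik3ap1 11 bases before it. The Btk window holds it 10 bases after the start, and the Plcg2 window holds TTC and GAA separated by 4 bases, a spacing bound by STAT6, 192 bases before the start (6.95% of windows). TTCNNNGAA, the spacing of other STAT factors, is in 8.3% of windows and in none of these 5. The 2 windows differ in base composition, with 42% G and C for Fcrl1 and 69.7% for Pik3ap1.

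Btk, the Tec-family kinase, and Plcg2, the phospholipase it phosphorylates, varied little. Btk held 93.7 to 104 CPM in WT M0 and 103 to 109.5 in TRα1PV M0, 68.5 to 87.6 and 71.4 to 83.1 in M1, and 107 to 115 and 107 to 116 in M2. Genotypes overlapped in each state (log2 0.07 ± 0.06, -0.04 ± 0.06 and 0.02 ± 0.06). The M1 libraries all lay below those of M0 of the same genotype, by -0.32 ± 0.06 in WT and -0.42 ± 0.06 in TRα1PV, and from M0 to M2 Btk differed by 0.11 ± 0.06 and 0.06 ± 0.06. Plcg2 held 151 to 185 CPM in WT M0 and 136 to 170 in TRα1PV M0, 106 to 125 and 110.4 to 145 in M1, and 142 to 159 and 135 to 144 in M2, with overlap between genotypes in each state. From M0 to M1 it differed by -0.54 ± 0.07 in WT, with no overlap, and by -0.25 ± 0.07 in TRα1PV, with overlap, so that the genotype effect in M1 differed from that in M0 by 0.29 ± 0.10. In both genotypes it differed by -0.16 ± 0.07 from M0 to M2.

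**Figure D3:**
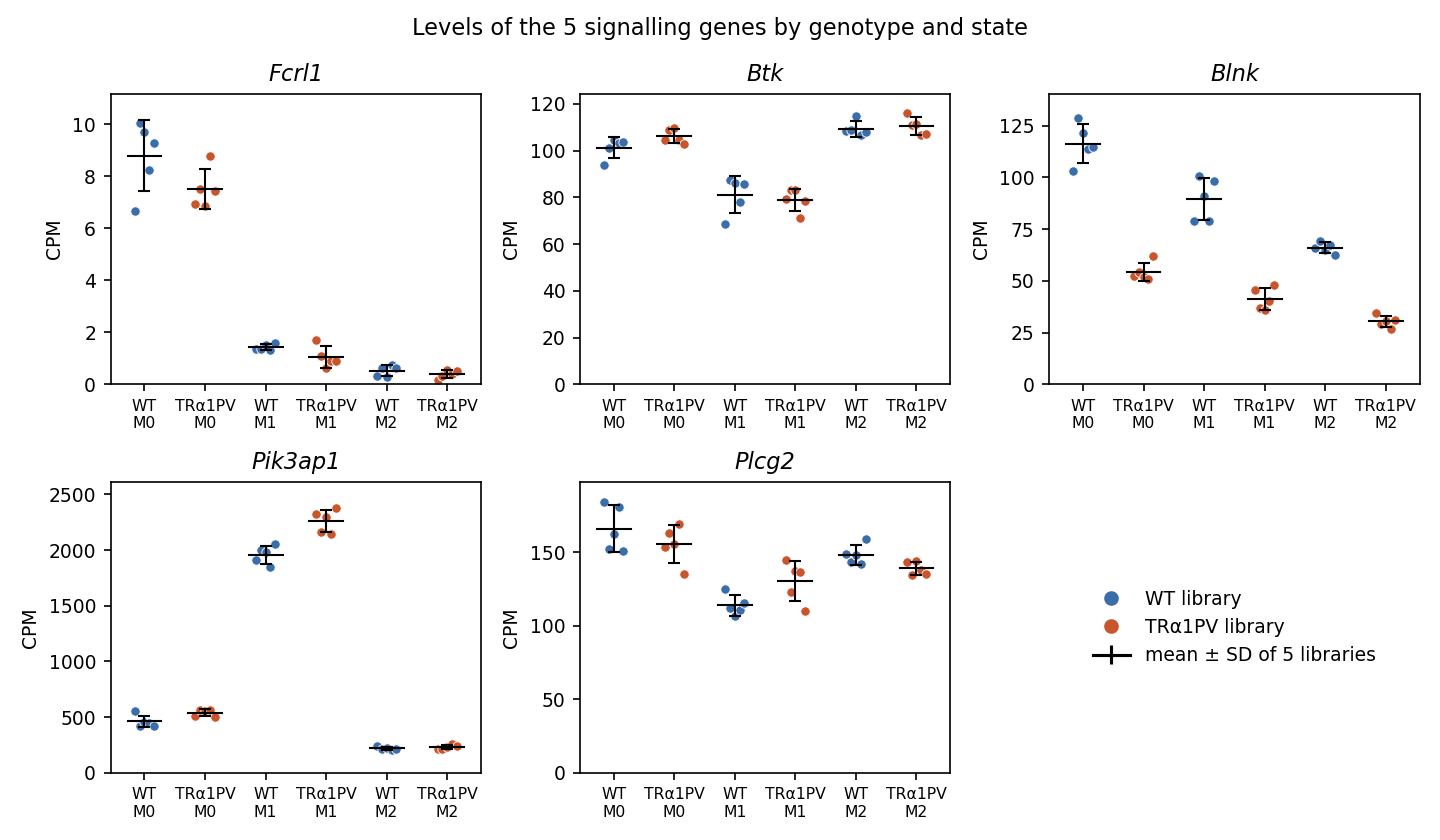
CPM of Fcrl1, Btk, Blnk, Pik3ap1 and Plcg2 in each library by genotype and state, with mean ± SD of 5 libraries; each axis starts at 0. Blnk is lower in TRα1PV in all 3 states, Pik3ap1 lies between 1847 and 2379 CPM in M1 and Fcrl1 below 2 CPM in M1 and M2.

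**Figure D4:**
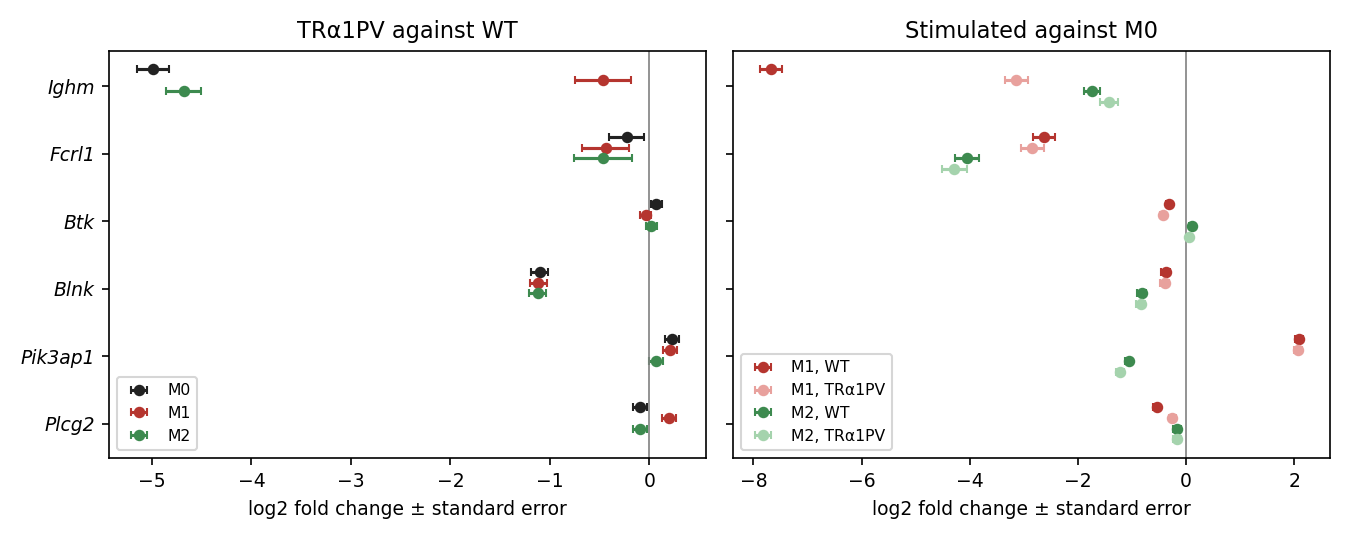
Log2 fold change ± SE of each member, TRα1PV against WT in each state (left) and M1 or M2 against M0 in each genotype (right). Ighm stands near -5 in M0 and M2 but near 0 in M1, Blnk near -1.1 in all 3 states, and the other 4 members within 0.5 of 0 between genotypes.

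Side by side, 2 of the 6 members had no overlap between genotypes in M0 (Ighm and Blnk lower), 2 in M1 (Blnk lower, Pik3ap1 higher) and 2 in M2 (Ighm and Blnk lower), against 12.5%, 11.6% and 13.8% of all tested genes. Against M0 of the same genotype, M1 libraries did not overlap for 6 members in WT and 5 in TRα1PV (61.8% and 70.1% of all genes), and M2 libraries for 5 and 4 (35.4% and 47.3%). The members were chosen on these contrasts, and the comparisons of M1 and M2 share the M0 libraries. Member fold changes kept their direction or stayed near 0 in each alternative run, and leaving out any library or changing the scaling, tool or filter moved the Ighm value in M0 between -5.12 and -4.93.

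The genes whose pattern was most like Ighm were sought among 15607 tested genes by Pearson's r of log2 CPM over the 30 libraries, as a description, since the libraries share 6 groups. The 5 nearest were Kansl2 (r = 0.954), a subunit of a histone acetyltransferase complex, Dbp (0.948), a clock-controlled transcription factor, Kansl2-ps (0.934), Mmp27 (0.932), a metalloproteinase, and Gm45606 (0.928). Kansl2-ps resembles Kansl2, so reads may be split between them. Dbp was at 40.1 ± 3.54 CPM in WT M0 against 12.1 ± 1.56 in TRα1PV M0, 18.8 ± 0.719 against 7.24 ± 0.96 in M2 and 5.16 ± 1.04 against 2.47 ± 0.821 in M1. For Blnk the nearest were Cxcl14 (0.932), Lbp (0.899) and 5430425K12Rik (0.898), and Cxcl14, a chemokine, was at 8.64 ± 2.53 against 1.16 ± 0.291 CPM in M0. For Pik3ap1 they were Isg20 (0.997), an interferon-induced exonuclease, Ptk2b (0.996) and Helz2 (0.994), and for Fcrl1 Clec4d (0.972), Cd302 (0.958) and Scarb2 (0.957). Btk was nearest to Etv1 (0.953), Acadm (0.951) and Ppp2r1b (0.949), and Plcg2 to Crocc (0.946), Zswim8 (0.926) and Lrrc45 (0.924).

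Blnk and Pik3ap1 are near each other on 1 chromosome, and in RefSeq's gene order for GRCm38.p6 they are separated by C330026H20Rik, Gm4269, Dntt, Opalin, Tll2 and Tm9sf3. Of these, Dntt, Opalin and Tll2 had at most 6 reads in any group, and Tm9sf3, a membrane protein of the secretory pathway, was at 213 ± 64 CPM in WT M0 and 263 ± 42 in TRα1PV M0. Beside Fcrl1 in the same order lie Fcrls and Cd5l on 1 side and Fcrl5 and Etv3 on the other, and values of Etv3 are not reported here. Cd5l, a secreted macrophage protein that binds IgM, is named here after its values were seen. It was at 206 ± 31.6 CPM in WT M0 and 68.4 ± 14.3 in TRα1PV M0 (log2 -1.59 ± 0.14, adjusted p = 8.37e-10). It also fell in TRα1PV in M1 (log2 -1.57 ± 0.14, adjusted p = 1.02e-08) and M2 (log2 -1.55 ± 0.14, adjusted p = 2.33e-09), with no overlap between genotypes in any state. Fcrls, an Fc receptor-like gene of myeloid cells, rose in M0 (log2 0.82 ± 0.21, adjusted p = 0.00453). Of the Fc receptor-like and IgM receptor genes, the 3 tested all rose in M0, 2 in M1 and none in M2. The 3 were Fcrls, Fcrl5 and Fcrla, and the calls of Fcrla were already counted with the B-lineage genes. Of all tested genes, 12.0%, 9.74% and 6.14% were called higher in these states. The third in M0 was Fcrl5, on 5 reads in WT and 24 in TRα1PV (adjusted p = 0.0436), a call lost without 7 of the 10 libraries compared. The Fcrls call in M1 (log2 0.91 ± 0.32, adjusted p = 0.0405) was lost without any of 6 of 10 libraries, WT M1 replicates 1 to 4 and TRα1PV M1 replicates 3 and 5 (adjusted p 0.0286 to 0.222).

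Other genes of the pathway moved in both directions between genotypes. Cd79b, Cd22 and Bank1 are among them and were also counted with the B-lineage genes above. Of 99 other genes on 5 lists of B-cell receptor signalling, 87 were tested, and in TRα1PV against WT 14 rose and 19 fell in M0, 21 rose and 10 fell in M1, and 7 rose and 15 fell in M2. These are 37.9%, 35.6% and 25.3% of them, against 26.0%, 20.0% and 13.1% of all genes called. By direction, all genes were called higher and lower at 12.0% and 14.0% in M0, 9.74% and 10.2% in M1, and 6.14% and 6.96% in M2. The median log2 fold changes of the pathway genes were -0.01, 0.05 and -0.01 (all genes: -0.01, 0 and -0.01). Fcgr2b and Rasgrp4 were among the genes that rose in all 3 states, and Fgr fell in all 3. Without WT M0 replicate 2 the counts in M0 were 50 pathway genes in place of 33 and 6143 of all genes in place of 4072. Within WT M0, replicate 2 ranked highest for mitochondrial reads (4.56%) and for reads in no gene (13.9%). Replicate 5 ranked second in both, at 2.07% and 11.7%. Whether the shares of replicate 2 bear on the counts was not tested. With only the compared libraries fitted, the counts were 2458 of all genes in M0, and in M2 34 pathway genes and 4008 of all genes, in place of 22 and 2055.

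Among receptors and co-receptors, 3 of 7 rose and 1 fell in M0 (57.1% called, against 26.0% of all genes). In M1, 4 rose and 1 fell (71.4%, against 20.0%), and in M2, 1 rose and 1 fell (28.6%, against 13.1%). Fcgr2b, the inhibitory Fc receptor, was at 555 ± 78.5 CPM in TRα1PV M0 and 326 ± 68.3 in WT M0 (log2 0.77 ± 0.12, adjusted p = 1.41e-05), and rose by 1.31 ± 0.12 in M1 (adjusted p = 1.02e-08) and by 0.38 ± 0.12 in M2 (adjusted p = 0.0308); the last call is lost without any of 5 libraries, WT M2 replicates 1, 4 and 5 and TRα1PV M2 replicates 2 and 5. Cd72, an inhibitory B-cell co-receptor also found on macrophages, fell in M2 (log2 -0.71 ± 0.13, adjusted p = 0.000265). Among kinases and phosphatases, 2 of 15 rose and 4 fell in M0 (40% called). In M1, 2 rose and 3 fell (33.3%), and in M2, 2 rose and 4 fell (40%). Fgr, a myeloid Src-family kinase, was at 2.12 ± 0.485 CPM in TRα1PV M0 against 8.01 ± 1.19 in WT M0 (log2 -1.92 ± 0.17, adjusted p = 1.17e-09), and Syk, the kinase that binds ITAMs, was at 640 ± 30.2 against 855 ± 72.5 CPM (log2 -0.42 ± 0.06, adjusted p = 2.74e-06). Syk was also lower in M2 (log2 -0.31 ± 0.06, adjusted p = 0.000367) but not called in M1, and the difference of its genotype effect between M1 and M0 passed the test (0.40 ± 0.08, adjusted p = 0.000867).

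Among adaptors besides Blnk and Pik3ap1, 4 of 23 rose and 5 fell in M0, 7 rose and 3 fell in M1, and 1 rose and 4 fell in M2. These were 39.1%, 43.5% and 21.7% of them, against 26.0%, 20.0% and 13.1% of all genes. Cbl, a ubiquitin ligase that ends receptor signals, rose in M0 (log2 0.43 ± 0.07, adjusted p = 1.42e-05), and Lat2, a membrane adaptor, fell (log2 -0.52 ± 0.09, adjusted p = 0.000169). Gab1, a docking protein for phosphoinositide 3-kinase, rose in M1 (log2 1.17 ± 0.13, adjusted p = 2.08e-07). In the lipid and exchange-factor arm, 4 of 24 rose and 6 fell in M0 (41.7% called). In M1, 4 rose and 1 fell (20.8%, near the 20.0% of all genes), and in M2, 2 rose and 4 fell (25%). Pik3cd, the catalytic subunit p110δ, fell in M0 (log2 -0.54 ± 0.09, adjusted p = 2.61e-05) and M2 (log2 -0.84 ± 0.09, adjusted p = 4.82e-08), Pik3r5, a regulatory subunit, fell in M0 (log2 -0.65 ± 0.08, adjusted p = 2.4e-07), and Rasgrp4, a Ras exchange factor, rose in M0 (log2 1.30 ± 0.15, adjusted p = 1.84e-07). Of 18 downstream effectors, 1 rose and 3 fell in M0, which is 22.2% and below the 26.0% of all genes. In M1, 4 rose and 2 fell (33.3%, against 20.0%), and in M2, 1 rose and 2 fell (16.7%, against 13.1%).

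Receptors through which macrophages use this machinery were also mixed. Of 19 tested ITAM-coupled receptor genes, 6 rose and 4 fell in TRα1PV M0, 5 rose and 4 fell in M1, and 6 rose and 4 fell in M2. These were 52.6%, 47.4% and 52.6% of them, against 26.0%, 20.0% and 13.1% of all genes. The activating Fc receptor Fcgr4 rose in M0 (log2 0.79 ± 0.08, adjusted p = 1.77e-08), M1 (log2 0.59 ± 0.08, adjusted p = 5.12e-06) and M2 (log2 0.55 ± 0.08, adjusted p = 2e-05). Trem2, a lipid receptor, fell in M0 (log2 -0.55 ± 0.10, adjusted p = 0.000187), and Clec7a, the β-glucan receptor dectin-1, fell in M1 (log2 -0.97 ± 0.14, adjusted p = 1.92e-05). The 10 calls in M2 were 5 or 6 without WT M2 replicate 1, 2 or 3 or TRα1PV M2 replicate 2 or 4. Of 22 tested transcription factors of B cells and macrophages, 8 rose and 2 fell in M0 (45.5%, against 26.0% of all genes). The shares in M1 and M2 were nearer those of all genes. In M1, 3 rose and 2 fell (22.7%, against 20.0%), and in M2, 2 rose and 2 fell (18.2%, against 13.1%). Spi1, which encodes PU.1, was not called in M0 (209 ± 16.8 CPM in WT, 190 ± 10.2 in TRα1PV).

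**Figure D5:**
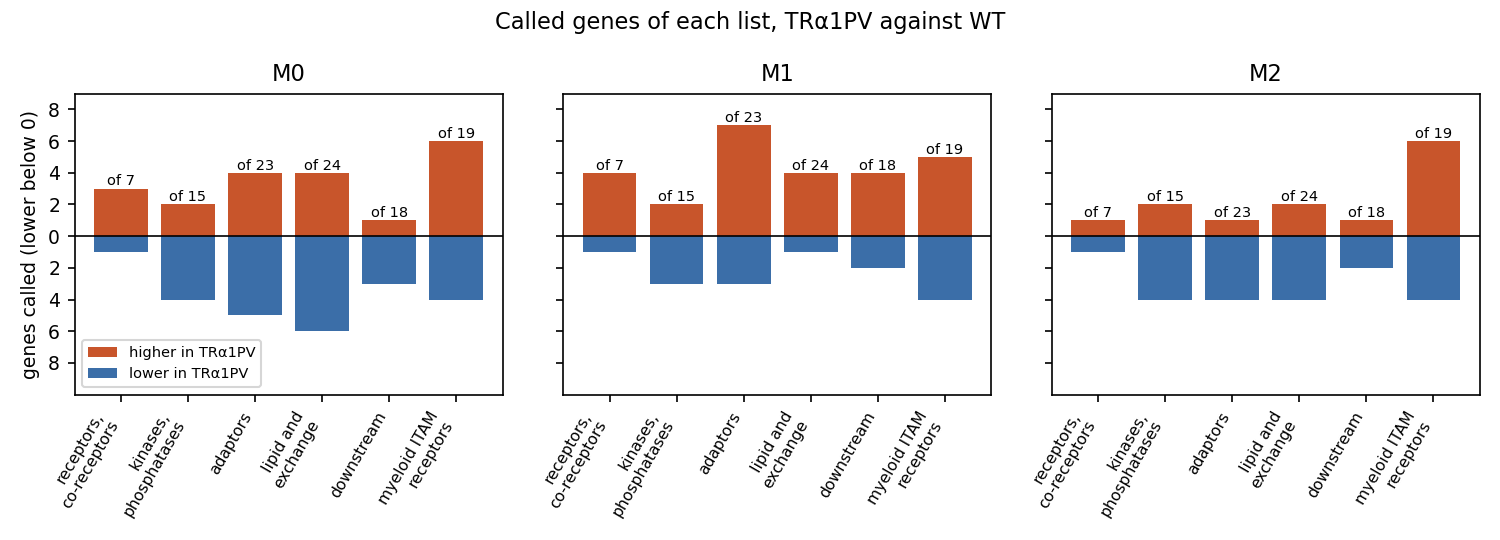
Number of genes called higher (bars up) or lower (bars down) in TRα1PV than in WT in M0, M1 and M2, for 5 role lists of B-cell receptor signalling and for ITAM-coupled receptors, members left out; the figure over each bar is the number tested. Every list holds genes in both directions in each state.

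Stimulation moved most of the pathway in both genotypes, as it did most of all tested genes. From M0 to M1, 42 of the 87 genes rose and 34 fell in WT, and 41 rose and 34 fell in TRα1PV, of which 36 rose and 28 fell in both. Of all genes, 39.4% rose and 40.2% fell in WT and 40.0% and 40.7% in TRα1PV (79.6% and 80.7% together). The pathway shares, 87.4% in WT and 86.2% in TRα1PV, were not far above these. From M0 to M2, 25 rose and 44 fell in WT, and 24 rose and 45 fell in TRα1PV, with 22 and 39 in both. Of all genes, 25.2% rose and 27.2% fell in WT and 28.3% and 29.4% in TRα1PV (52.4% and 57.7% together). The pathway share was 79.3% in each genotype. Of the lipid and exchange-factor arm, 16 of 24 fell with interleukin-4 in WT and 3 rose. Rasgrp1, a Ras exchange factor, rose from 0.459 ± 0.326 CPM in WT M0 to 136 ± 34.8 in M1 and 45.2 ± 9.04 in M2 (log2 8.20 ± 0.28, adjusted p = 1.13e-21, and 6.61 ± 0.28, adjusted p = 2.17e-18). Prkcb, the protein kinase C of the B-cell receptor pathway, fell in M1 (log2 -3.19 ± 0.12, adjusted p = 8.58e-21), as did Cd79b (log2 -3.78 ± 0.22, adjusted p = 6.24e-16), the partner chain of membrane IgM. Themis2, a macrophage and B-cell adaptor, rose in M1 (log2 3.01 ± 0.07, adjusted p = 4.18e-25). Pou2f2, which encodes Oct-2, fell in WT M2 (log2 -3.23 ± 0.11, adjusted p = 1.61e-20), and Irf4 fell in M1 (log2 -5.09 ± 0.21, adjusted p = 1.6e-19) and rose in M2 (log2 3.38 ± 0.13, adjusted p = 3.53e-19).

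Tested directly, the genotype effect differed between M1 and M0 for 38 of the 87 pathway genes, 24 upward and 14 downward, with 26.6% of all genes called (13.3% in each direction). It differed between M2 and M0 for 4, 1 upward and 3 downward, with 2.16% called (0.701% upward and 1.46% downward). Without WT M0 replicate 2 or TRα1PV M2 replicate 1 the latter count was 7. None of the 6 B-lineage genes passed either test in edgeR, where 2 and 0 of them had an unadjusted p under 0.05, and for M1 leaving out single libraries gave up to 2 calls.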

How the data were processed

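PolyA-selected RNA was sequenced in 30 macrophage libraries, 5 for each of 2 genotypes in 3 states. The authors deposited 1 table of raw counts per library, with Ensembl identifiers and no normalization. The submitters' processing notes name HTSeq 1.99.2, HISAT2 2.2.1, Trimmomatic 0.39 and GRCm39. They also list R 4.3.2, limma, edgeR, Cufflinks and FastQC 0.11.9, with no order. The annotation release and strand setting were not given in the sources used here, so reads of overlapping antisense genes cannot be told apart. Each file held 55414 genes, and 5 closing totals were left out of library sizes. Symbols came from a GENCODE annotation of another build (52081 matched), and promoter windows from RefSeq GRCm38.p6 (5 of 6 members).

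Counts were analysed with edgeR 4.0.16 in R 4.3.3. Genes passing filterByExpr (minimum count 10, minimum total 15) were scaled with TMM, and all 30 libraries entered 1 two-sided quasi-likelihood fit with 24 residual degrees of freedom. Calls used Benjamini-Hochberg adjusted p under 0.05 over 15686 genes. SE is the absolute log2 fold change over the square root of F. On data simulated for TRα1PV against WT in M0 (15174 genes), the test recovered 79 of 97 genes changed by 1 on the log2 scale and 96 of 100 changed by 2. The simulated counts came from the type of model then fitted and held no difference between states. Recovery in the real data may therefore differ. The members and the 15 gene lists were chosen with earlier results of these data known. Named list genes were, per list and comparison, up to 4 called with the smallest p whose mean log2 CPM was not below 0, of which a part is reported and some are not reported here. Likeness used a prior count of 2. Intervals and floors cover counting error only.

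Alternatives were RLE size factors, DESeq2 1.42.0, limma-voom (limma 3.58.1), no filter, only the compared libraries, the replicate number as a block, and leaving out each library. Replicates of a group differed beyond counting noise in all 60 pairs (chi-square per degree of freedom 6.69 to 206).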

Additional observations from a re-analysis of the deposited data

Results flagged for a closer look

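Within each group of 5, a library was singled out where its gap to the nearest other was over 0.71 of the group's range, which chance does in about 1 of 20 groups. This held in 3 of 42 groups of the members and Cd5l. Btk in WT M0 had its lowest library, replicate 1, at 93.7 CPM, and Btk in WT M2 its highest, replicate 3, at 115 CPM. Pik3ap1 in WT M0 had its highest library, replicate 1, at 552 CPM. Without these libraries the log2 fold changes between genotypes were 0.30 for Pik3ap1 in M0, 0.04 for Btk in M0 and 0.04 for Btk in M2.

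For the genes below, the genotype effect (TRα1PV against WT, log2) differed between states by edgeR's test of the difference itself. Between M1 and M0 the effect was higher in M1 for Fgr by 1.18, Gab1 by 1.00, Pik3r5 by 0.77, Itpkb by 0.75, Lat2 by 0.71, Trem2 by 0.70, Bcl6 by 0.56, Syk by 0.40 and Tec by 0.40. It was lower in M1 for Klf9 (-1.37) and Itpr1 (-0.72). Between M2 and M0 it was higher in M2 for Klf9 by 1.51 and Egr1 by 0.92. It was lower in M2 for Clec4n (-0.65), Itpr1 (-0.65), Fcgr1 (-0.63), Themis2 (-0.49) and Prkcd (-0.47). Adjusted p-values ranged from 1.67e-05 for Pik3r5 to 0.0193 for Clec4n, whose call is lost without WT M2 replicate 3.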

How the results depend on the processing

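The 54 fold changes of the members kept their direction, or stayed within their error of the reported value, in 324 values under other settings and 660 with a library left out. Of the 36 counts of called genes, 206 of 216 values under other settings and 420 of 440 with a library left out stayed within 1.5 times the reported count, and no named gene changed sign. With only the compared libraries fitted, 2458 genes were called between genotypes in M0 and 4008 in M2 (4072 and 2055 with all), and 34 pathway genes and 1 B-lineage gene in M2 (22 and 0). With no filter, 6 B-lineage genes were called from M0 to M2 in WT and 9 from M0 to M1 in TRα1PV (3 and 5), since more genes were tested. DESeq2 called 529 genes and 7 pathway genes for the genotype effect in M2 against M0 (339 and 4). With a library left out, genes called between genotypes ranged from 2941 to 6143 in M0 and from 1270 to 2709 in M2, and pathway genes in M0 from 29 to 50. ITAM-coupled receptor genes in M2 ranged from 5 to 9. For the genotype effect in M1 against M0, B-lineage genes ranged from 0 to 2. For that in M2 against M0, all genes ranged from 252 to 511, pathway genes from 4 to 7 and ITAM-coupled receptor genes from 1 to 2. Where not named, the cause was not tested.

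Calls of single genes lost under at least 1 setting were those of Fcrls, Mapk3 and Cd79b in M1, Spi1, Dok3 and Fcgr2b in M2, Cd79b, Ptprc, Pou2f1 and Fcrl5 in M0, and Clec4n between M2 and M0.

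Replicate numbers stand in the labels' batch field, which does not say if a number is 1 animal or day. Deviations of same-numbered WT and TRα1PV libraries from their group means had correlations from -0.374 to 0.259 for M0, from -0.17 to 0.17 for M1 and from -0.0229 to 0.212 for M2. Of these, 2, 1 and 3 of 5 correlated best with their own number, so the numbers were not taken to pair the genotypes. Between M1 and M0 it was 1 of 5 in each genotype, and between M2 and M0 it was 3 in WT and 4 in TRα1PV. In the last, the mean correlation was 0.184 for the same number and -0.0459 for other numbers. The main fit left the states unpaired too, so a pairing of M2 with M0 libraries may have been ignored. With the number as a block, 4446 genes were called in M0, 3411 in M1 and 2433 in M2, with 36, 34 and 23 pathway genes and 10, 9 and 11 ITAM-coupled receptor genes. The block gave 1 B-lineage gene in M2 and 1 for the genotype effect in M1 against M0, both 0 without it.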
